A study of Mus musculus with 6 samples.

Results

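Podoplanin (Pdpn), its receptor CLEC-2 (Clec1b) and 5 genes for proteins that bind podoplanin or link it to the cell cortex (Cd44, Cd9, Ezr, Msn and Rdx) were followed across 6 arrays of mouse embryonic liver. The genes were chosen by symbol, without use of their values in the rule but with earlier results of these data known. They have 14 probe sets among the 45101 on the array. All 7 genes were measured, and 11 of the 14 probe sets exceeded the floor of intensity 109.0, the median of all values, on at least 1 array. The samples were wild type C57Bl6 embryos at E12.5, with 1 Affymetrix Mouse Genome 430 2.0 array for each of 6 groups and 20 ng of total RNA labelled per sample. The groups were liver cells, cells positive for the adhesion molecule ALCAM (ALCAM+), and 4 fractions sorted from them, PDPN+ and PDPN- for podoplanin and ITGA8+ and ITGA8- for the integrin alpha 8 subunit. The labels do not say whether embryos were pooled, how many there were, or whether both pairs of fractions came from the same cells.

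Podoplanin is a small mucin-like surface glycoprotein of mesothelium, lymphatic endothelium and some stromal cells. Its O-glycosylated outer part is bound by CLEC-2, a C-type lectin receptor of platelets and megakaryocytes that signals through the kinase SYK, and this contact keeps blood and lymphatic vessels apart in development. Its short cytoplasmic tail binds the ERM proteins ezrin, moesin and radixin, which tie membrane proteins to actin filaments, while the hyaluronan receptor CD44 and the tetraspanin CD9 associate with it in the membrane.

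The upstream sequences of the 3 genes with the largest differences between PDPN+ and PDPN- cells, Pdpn, Clec1b and Cd44, are printed to show the stretch before each start. Each run is the 250 bases before the start, 5′ to 3′ on the gene's strand, from RefSeq on GRCm38.p6, a build that the sources used here do not name for the array file. Capitals mark GATAA on either strand, the core recognised by GATA factors.
Pdpn (chr4:143299565-143299814, minus strand): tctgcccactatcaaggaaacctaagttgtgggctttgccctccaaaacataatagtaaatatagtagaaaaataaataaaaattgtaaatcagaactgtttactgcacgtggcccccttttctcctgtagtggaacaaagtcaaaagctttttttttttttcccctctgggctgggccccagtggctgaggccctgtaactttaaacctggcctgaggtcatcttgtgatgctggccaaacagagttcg
Clec1b (chr6:129397047-129397296, plus strand): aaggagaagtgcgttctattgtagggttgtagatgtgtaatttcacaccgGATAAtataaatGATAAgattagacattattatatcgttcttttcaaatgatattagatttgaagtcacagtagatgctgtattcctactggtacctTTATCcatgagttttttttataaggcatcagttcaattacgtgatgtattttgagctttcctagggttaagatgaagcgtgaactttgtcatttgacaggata
Cd44 (chr2:102901666-102901915, minus strand): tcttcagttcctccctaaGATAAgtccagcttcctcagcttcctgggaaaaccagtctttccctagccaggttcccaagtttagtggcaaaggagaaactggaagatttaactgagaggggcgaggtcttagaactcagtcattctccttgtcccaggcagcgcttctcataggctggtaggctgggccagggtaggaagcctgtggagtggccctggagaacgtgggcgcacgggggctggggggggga
GATAA occurred 3 times in the Clec1b window, 1 time in that of Cd44 and 0 times in that of Pdpn, and at least once in 22.6% of 32851 windows of the same length. Also searched on both strands were GGGCGG, found in none of these 3 windows and in 32.7% of all, GGAAG, found 4 times before Cd44 only of the 3 and in 64.1% of all, and CANNTG, found 1 time before Pdpn, 2 times before Clec1b and in 66.2% of all. The matches are a description of the letters.

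The arrays fall into 2 sets with different scales, liver with ALCAM+ and the 4 fractions together, so levels are compared within a set. Median intensities were 42 and 66 in the first set and 123 to 200 in the second, and PDPN- had the fewest genes above the floor of the fractions, 11866 against 13001 to 13358. Differences are given on the scale log2(intensity + 16), and a gene is called higher or lower at 2-fold. ALCAM+ minus liver is given relative to the median difference over the 10989 genes above the floor on either array, 0.90 log2. Medians and shares over all genes likewise refer to the genes above the floor in that comparison. With 1 array a group there is no test and no spread between samples. The scatter within an array is gauged by the gap between the differences of a gene's 2 strongest probe sets, whose 90th percentile over genes was 1.29 log2 in ALCAM+ minus liver, 1.10 in PDPN+ minus PDPN-, 1.21 in ITGA8+ minus ITGA8- and 1.63 in ITGA8+ minus PDPN+. Liver cells had the labelled tissue's markers, with Alb at 12832 and the red cell anion exchanger gene Slc4a1 at 11031. The sort markers followed the labels, Alcam at 3207 in liver and 13425 in ALCAM+, and Itga8 at 4354 in ITGA8+ and 871 in ITGA8-.

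**Figure D1:**
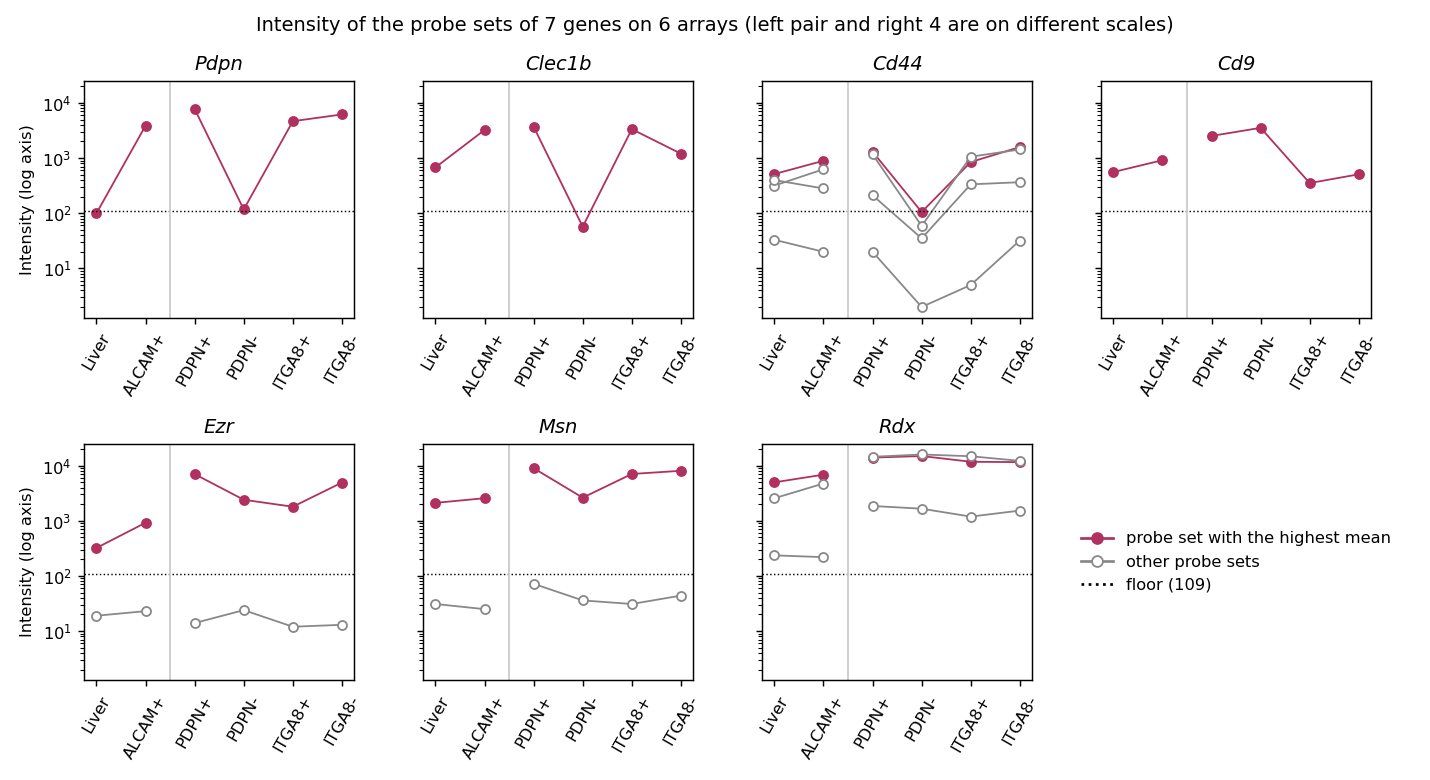
Intensity (log axis) of the 14 probe sets of the 7 genes on the 6 arrays, with the probe set of highest mean filled and the others open; lines join arrays of 1 set and the dotted line is the floor of 109. Pdpn, Clec1b and Cd44 dip in PDPN-, Cd9 is high on both arrays of the PDPN sort, and Rdx is nearly level.

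Podoplanin itself, the ligand, was at an intensity of 7746 in PDPN+ and 117 in PDPN-, and 4658 in ITGA8+ and 6176 in ITGA8-. In the other set it was at 100 in liver and 3877 in ALCAM+. The sort on its protein was thus mirrored in its RNA, with PDPN- just above the floor, and both ITGA8 fractions carried Pdpn. The PDPN+ to PDPN- difference, 5.87 log2 or 58.4-fold, is the one the sort selected and is given as a check of the labels. Relative to PDPN+, the intensity was 79.7% in ITGA8- and 60.1% in ITGA8+. ITGA8+ minus ITGA8- was -0.41 log2, which is within the gap between probe sets, so those neighbours in the order are not separated. Between ALCAM+ and liver Pdpn differed by 4.17 log2, or 18-fold, and the liver value lay below the floor, so that fold depends on the added constant.

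The genes closest to Pdpn over the 6 arrays, by root mean square difference of log2 values centred within each set, were Aldh1a2 at 0.33, Upk3b at 0.34, Cpe at 0.45, Bnc1 at 0.52 and Upk1b at 0.54. Of 14537 genes compared, 3 lay within 0.5 of Pdpn. Of these 5 neighbours, 4 are in the mesothelial marker list; Cpe, the carboxypeptidase E gene, is in no list. Mesothelial markers were higher in PDPN+ than in PDPN- in 13 of 13, against 19.8% of all genes. Their median was 5.18 against 0.04 over all genes. They were lower in ITGA8+ than in ITGA8- in 11 of 13, against 5.95% of all genes, with a median of -1.65. Their summed intensity was 60805 in PDPN+ and 1525 in PDPN-, and 19278 in ITGA8+ and 46790 in ITGA8-. Pdpn kept 60.1% of its PDPN+ level in ITGA8+, where that sum kept less: Upk3b was at 14424 in PDPN+ and 4578 in ITGA8+, and Bnc1 at 9573 and 2124. Wt1 and Aldh1a2, the 2 mesothelial markers within 2-fold between the ITGA8 fractions, were at 5762 and 2509 in ITGA8+ and at 6421 and 2363 in ITGA8-. In PDPN+ they were at 7554 and 2082, so these 2 kept more of that level in ITGA8+ than Pdpn did. The other 11 markers were lower in ITGA8+ than in PDPN+ past 2-fold. The part of these markers in the Pdpn values was not tested, and in bulk samples fewer cells of a type and less RNA per cell cannot be told apart.

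Lymphatic endothelium is the other classical site of podoplanin, and 5 of its markers were measured. In PDPN+ minus PDPN- 2 of the 4 above the floor were higher, Lyve1 and Flt4, and 1 was lower, Foxc2. Shares over all genes were 19.8% and 7.84%. Sox18 was at 25 to 68 on the 4 fraction arrays, below the floor, and Lyve1, the lymphatic and sinusoidal hyaluronan receptor, was at 195 in PDPN+ and 77 in PDPN-, and 690 in ITGA8+ and 729 in ITGA8-. Flt4, the VEGF receptor of lymphatic vessels, was at 2137, 95, 2152 and 2688 in the same order. Prox1, a transcription factor of lymphatic endothelium and of hepatoblasts, was at 8328, 10545, 2106 and 3173. Foxc2, a transcription factor of lymphatic valves and of mesenchyme, was at 200, 444, 3608 and 2658. Flt4 had its low value in PDPN-, as Pdpn did, while Prox1 was highest there and Foxc2 lowest in PDPN+.

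Genes that modify or regulate podoplanin were mostly within 2-fold in both splits, as were most genes. Of 14 such genes above the floor, 0 were higher and 1 was lower in PDPN+ than in PDPN-, where 19.8% and 7.84% of all genes were. Their median was -0.21 against 0.04 over all genes. The exception was St3gal1, a sialyltransferase of O-glycans, at 631 in PDPN+ and 1368 in PDPN- (-1.10). That size is no more than the 90th percentile of the gap between probe sets, 1.10. C1galt1, which builds the core O-glycan that CLEC-2 needs on podoplanin, was at 1437 and 1523, and its chaperone gene C1galt1c1 at 965 and 1023. Rhoa, the small GTPase that acts downstream of podoplanin and ERM proteins, was at 8389 and 10292. Between the ITGA8 fractions 1 of 14 was lower in ITGA8+, where 5.95% of all genes were. It was Bsg, the gene of the immunoglobulin-family protein basigin, at 2707 against 7538 (-1.47). C1galt1, C1galt1c1 and Rhoa were within 2-fold in both splits and were named after their values were seen.

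Clec1b, the receptor, was at 3700 in PDPN+ and 57 in PDPN-, and 3340 in ITGA8+ and 1204 in ITGA8-. In liver it was at 677 and in ALCAM+ at 3227. It was thus below the floor only in PDPN- and nearly equal in both positive fractions, which differed by -0.15 log2. Between PDPN+ and PDPN- the difference was 5.67 log2, or 50.9-fold, a size that depends on the added constant. Between ITGA8+ and ITGA8- it was 1.46, or 2.75-fold, toward ITGA8+, while Pdpn was at -0.41 there. ALCAM+ exceeded liver by 1.33 relative to the shift, just past the 90th percentile of the gap between probe sets, and Clec1b has a single probe set. Receptor and ligand were therefore both high in PDPN+ and both low in PDPN-, and were ordered differently between the ITGA8 fractions.

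Clec1b lay closest to Slc35d3 (0.17), Treml1 (0.22), Gnaz (0.23), Rab27b (0.27) and Alox12 (0.28), and 16 of 14537 genes lay within 0.5. Treml1 is in the megakaryocyte list, and Alox12 encodes the platelet 12-lipoxygenase. Megakaryocyte markers were higher in PDPN+ than PDPN- in 12 of 12, against 19.8% of all genes, with a median of 4.71. They were higher in ITGA8+ than ITGA8- in 9 of 12, against 5.31% of all genes, with a median of 1.55. Their summed intensity was 33747 in PDPN+ and 348 in PDPN-, and 41343 in ITGA8+ and 17778 in ITGA8-, and 0 of 12 exceeded the floor in PDPN-. The part of those markers in the Clec1b values was not tested.

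Macrophage markers were also higher in PDPN+ than PDPN- in 10 of 10, with sums of 32741 and 630. So were 6 of 6 neutrophil markers above the floor, with sums of 24947 and 107, and 19.8% of all genes. In the ITGA8 sort, where Clec1b was at 3340 and 1204, the sums were 3508 in ITGA8+ and 2054 in ITGA8- for macrophage markers and 2690 and 1760 for neutrophil markers. In ITGA8+ 6 of 10 macrophage markers exceeded the floor, among them Fcer1g at 1266, Mrc1 at 917 and Csf1r at 427, while C1qc and Cd5l were at 5 and 4. Of 7 neutrophil markers, 1 exceeded it there, Mpo at 2532, while S100a9 was at 36. The part of these markers in the Clec1b values was not tested.

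Downstream of CLEC-2, the signalling genes were mostly higher in PDPN+ than in PDPN-, as Clec1b was, and mostly within 2-fold in ITGA8+ minus ITGA8- and ALCAM+ minus liver. Of 19 above the floor, 15 were higher in PDPN+ and 1 in PDPN-, where 19.8% and 7.84% of all genes were. Their median was 3.25 against 0.04 over all genes. The largest differences were of Fcer1g, the Fc receptor gamma chain that signals for the collagen receptor GPVI, at 3937 and 145 (4.62), and of both chains of the fibrinogen receptor, Itgb3 at 5403 and 238 (4.42) and Itga2b at 571 and 12 (4.39). The order of the differences depends on the added constant, since several PDPN- values, such as that of Itga2b, lie far below the floor. Syk, the kinase recruited by CLEC-2, was at 513 and 27, and Plcg2, its phospholipase effector, at 449 and 29; both were named for their place in the pathway after their values were seen. Rasgrp2, the exchange factor for the GTPase RAP1, went the other way, at 2487 and 5589 (-1.16). Its probe set carries a suffix for shared targets and may also report other transcripts. The probe sets of Vav1, Vav3, Prkcd and Fermt3, counted as higher in PDPN+, carry such suffixes too. Fyn, Rac1 and Tln1, which many cell types use, were at -0.25, 0.31 and 0.95. In the list 3 genes, Itga2b, Gp6 and Fcer1g, are also megakaryocyte or macrophage markers, so its counts overlap theirs.

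Between the ITGA8 fractions 6 of 19 signalling genes were higher in ITGA8+ and 0 lower, where 5.31% and 5.95% of all genes were. The median was 0.85 against 0.00. Gp6, the collagen receptor GPVI, was at 348 in ITGA8+ and 30 in ITGA8- (2.98), Itga2b at 1843 and 526 (1.78), and Rasgrp2 at 2739 and 850 (1.67). Btk, a kinase downstream of SYK, was at 1634 in ITGA8+ and 341 in PDPN+ (2.21), the largest difference of the list between the positive fractions, although Clec1b itself was level there. In that comparison 7 of 19 signalling genes were higher in ITGA8+ and 2 lower, where 16.1% and 14.1% of all genes were. The median was 0.21 against 0.04. In ALCAM+ minus liver 5 of 20 were higher and 2 lower, where 15.4% and 11.3% of all genes were. The median was 0.82 against 0.00. Itga2b was at 1.54, Grap2, an adaptor gene, at -1.46 and Gp6 at 1.44.

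**Figure D2:**
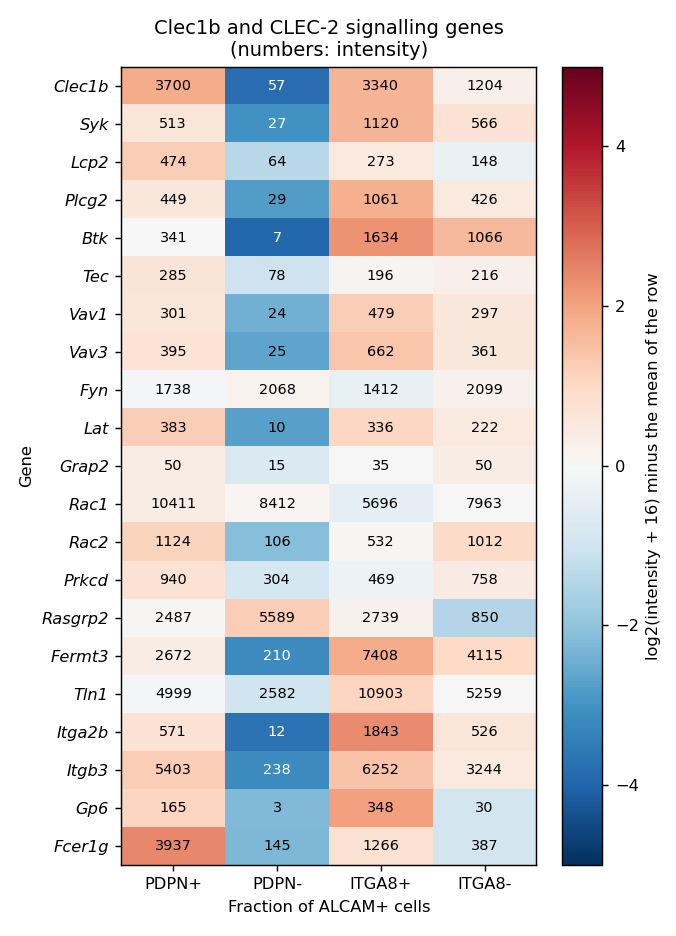
Clec1b and 20 CLEC-2 signalling genes (rows) on the 4 fraction arrays (columns); colour is log2(intensity + 16) minus the mean of the row, and the printed numbers are intensities. PDPN- is the lowest array for most rows, with Clec1b at 57 and Syk at 27, while Rasgrp2 is highest there at 5589.

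Cd44, the hyaluronan receptor, was at 1302 in PDPN+ and 105 in PDPN-, and 848 in ITGA8+ and 1584 in ITGA8- by its strongest probe set. In liver it was at 513 and in ALCAM+ at 894, a difference of -0.11 relative to the shift. The PDPN- value was the lowest of the fractions and lay below the floor. PDPN+ exceeded PDPN- by 3.45, and the other 2 probe sets above the floor gave 3.98 and 2.15, so 3 of 3 were past 2-fold in the same direction. ITGA8+ minus ITGA8- was -0.89, with -0.43 and -0.12 from the other 2, none past 2-fold. The fourth probe set was at 2 to 33, below the floor on all 6 arrays. In ALCAM+ minus liver the probe sets disagreed, at -0.11, 0.05 and -1.38.

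Genes of the hyaluronan system were higher in PDPN+ than in PDPN- in 8 of 12 above the floor and lower in 0. Of all genes 19.8% were higher and 7.84% lower. The median of the 12 was 1.31 against 0.04. Stab2, a scavenger receptor for hyaluronan on sinusoidal endothelium, was at 526 and 56 (2.91), Spp1, osteopontin, a CD44 ligand, at 699 and 134 (2.25), and Cd74, which signals with CD44, at 721 and 180 (1.91). Endothelial markers above the floor were also higher in PDPN+, in 4 of 4, with a median of 2.73; the sums over all 7 were 2475 in PDPN+ and 354 in PDPN-. Stab2 and Lyve1 are in the endothelial and lymphatic lists too, so these counts overlap, and the part of those markers was not tested. Has2, the main hyaluronan synthase of embryonic mesenchyme, was at 255 in PDPN+ and 95 in PDPN- (1.29), and at 342 in ITGA8+ and 709 in ITGA8- (-1.02). Between the ITGA8 fractions 1 of 11 was higher, Hmmr at 1.01, and 2 were lower, Spp1 at -1.71 and Has2. The shares over all genes were 5.31% and 5.95%. Vcan, the hyaluronan-binding proteoglycan versican, was at 285 in liver and 1909 in ALCAM+ (1.78). It was the only 1 of 8 past 2-fold there, where 15.4% of all genes were higher and 11.3% lower. Has1 and Has3 lay below the floor on all 6 arrays. Has2 in the PDPN split was named after its values were seen.

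Cd9, the tetraspanin, had a pattern of its own among the 7. It was at 2518 in PDPN+ and 3530 in PDPN-, and 352 in ITGA8+ and 508 in ITGA8-, and at 558 in liver and 915 in ALCAM+. Its level followed the sort and not the fraction, with both arrays of the PDPN sort above both of the ITGA8 sort. Within the sorts, positive minus negative was -0.48 and -0.51, within the gap between probe sets, so no order of those fractions is claimed. Cd9 has a single probe set, on which all these values rest. The nearest arrays of the 2 sorts, PDPN+ and ITGA8-, differed 4.84-fold, and ITGA8+ minus PDPN+ was -2.78 log2, or 6.89-fold. Both arrays of the PDPN sort lay at least 2-fold above both of the ITGA8 sort for 2.93% of 14492 genes above the floor, a comparison added after the data were seen. Cd9 was the 1 member of 7 among them, and 0 of 7 went the other way, against 5.22% of all genes. The sorts are single experiments, so a difference between them cannot be told apart from a difference between cell preparations.

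Other genes on the same side of the 2 sorts included Tspan12, a tetraspanin of the Norrin and Frizzled 4 receptor complex, at 2240 and 4705 against 660 and 872, the 1 of 18 tetraspanins and CD9 partners, and Prox1. The neighbours of Cd9 were Pde8a and Cdh1, both at 0.11, and Cth at 0.13, and 301 genes lay within 0.5. Cdh1, the epithelial cadherin, was at 6593 in PDPN+ and 10883 in PDPN-, and 1142 in ITGA8+ and 1570 in ITGA8-. Of 8 hepatoblast markers, 0 had both arrays of 1 sort 2-fold above the other, and their sums were 158372, 192783, 146115 and 120454 in that order. Several lay near the top of the scale, such as Afp at 24675 to 32957 on the 4 fraction arrays, where differences can be compressed. Others lay lower and did not divide the sorts either, such as Hnf4a at 13149, 19091, 11074 and 8237. Krt8 was at 6385, 10767, 5813 and 3817. Prox1, a factor of hepatoblasts too, is not in that list. Erythroid markers were 2-fold higher on both ITGA8-sort arrays in 7 of 7 above the floor, with sums of 6266, 3567, 34982 and 27346. The part of the hepatoblast and erythroid markers in the Cd9 values was not tested.

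Other tetraspanins were not uniform, and most were within 2-fold in both splits, as were most genes. In the PDPN split 5 of 18 in the list were higher in PDPN+ and 1 lower, where 19.8% and 7.84% of all genes were. The median was 0.39 against 0.04. Cd53, a leukocyte tetraspanin, was at 4752 and 74 (5.73), Tspan32, of blood cells, at 917 and 36 (4.17), and Tspan15, a partner of the protease ADAM10, at 670 and 103 (2.53). Cd81, a close relative of Cd9, was at 15226, 11449, 18448 and 13456 on the 4 fraction arrays, within 2-fold throughout. Ptgfrn, which binds CD9 and CD81 directly, was at 5293, 3410, 3014 and 4101. In ITGA8+ minus ITGA8- 0 were higher and 2 lower, Epcam at -1.37 and Tspan15 at -1.04, where 5.31% and 5.95% of all genes were. In ALCAM+ minus liver Cd151, a tetraspanin that binds laminin-receptor integrins, was at 3284 against 284 (2.56), Tspan8 at 555 against 2167 (-2.83) and Cd82 at 294 against 555 (-1.78). Cd81 and Ptgfrn were named after their values were seen.

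The 3 ERM genes differed from each other. Ezr, ezrin, the ERM protein of epithelial microvilli, was at 7005 in PDPN+ and 2404 in PDPN-, and 1796 in ITGA8+ and 4926 in ITGA8-, and at 322 in liver and 921 in ALCAM+. PDPN+ and ITGA8- were its high arrays and the other 2 its low ones. The differences were 1.54 in PDPN+ minus PDPN-, -1.45 in ITGA8+ minus ITGA8- and -1.95 in ITGA8+ minus PDPN+, all past 2-fold and past the 90th percentile of the gap between probe sets. Mesothelial markers had the same 2 high arrays, and the part of that in the Ezr values was not tested. In ALCAM+ minus liver Ezr was at 0.58 relative to the shift. A second probe set was at 12 to 24, below the floor, so these values rest on 1 probe set. Its neighbours were Lypd6 (0.07), Efna1 (0.11) and Fzd6 (0.13).

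Msn, moesin, the ERM protein of leukocytes and endothelium, was at 8973 in PDPN+ and 2621 in PDPN-, and 7048 in ITGA8+ and 8048 in ITGA8-. It was low only in PDPN-, by 1.77 log2 or 3.41-fold against PDPN+, and the other 3 fractions lay within 1.27-fold of each other. Liver was at 2110 and ALCAM+ at 2565, or -0.62 relative to the shift. Its second probe set was at 25 to 72, below the floor. Padi2, Dusp1 (0.07 both) and Slc16a4 (0.10) were its nearest genes, and 2235 genes lay within 0.5, so this pattern is a common one on these arrays.

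Rdx, radixin, the ERM protein abundant in hepatocyte canaliculi, was at 13962 in PDPN+ and 14898 in PDPN-, and 11736 in ITGA8+ and 11559 in ITGA8-. Liver was at 4972 and ALCAM+ at 6850. The highest and lowest fraction differed 1.29-fold, which is within the gap between probe sets, so no order of the 4 is claimed. All 3 probe sets were above the floor on every array, and none of their differences between fractions passed 2-fold: -0.09, -0.14 and 0.16 in PDPN+ minus PDPN- and 0.02, 0.28 and -0.36 in ITGA8+ minus ITGA8-. In ALCAM+ minus liver they were at -0.43, -0.01 and -0.996, a spread that shows the scatter between probe sets of 1 gene. Differences can be compressed at high intensity, and the weaker probe set, at 1190 to 1854 on these arrays, was also within 2-fold. As many as 7638 genes lay within 0.5 of Rdx, nearest Ccdc47 (0.03), Ascc1 and Txn1 (both 0.04).

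ERM regulators and membrane anchors were mostly level, as were most genes. The list includes Pdpn and Cd44 themselves. In PDPN+ minus PDPN- 5 of 17 above the floor were higher and 1 lower, where 19.8% and 7.84% of all genes were. Those 5 include Cd44 and Pdpn, the latter by the sort. The median was 0.26 against 0.04. Podxl, podocalyxin, a sialomucin anchored through ezrin, was at 14427 in PDPN+ and 261 in PDPN-, and 5650 in ITGA8+ and 13258 in ITGA8-, so it had the high and low arrays of Pdpn with a larger step between the ITGA8 fractions, -1.23. Selplg, the leukocyte ligand of selectins, was at 273 and 35 in the PDPN split (2.50). Slc9a3r1, the scaffold NHERF1 that ERM proteins bind, was at 14338, 15449, 13758 and 11940 on the fractions, and at 1012 in liver and 5742 in ALCAM+ (1.59). Slc9a3r2, its paralog, was at 88 and 563 in the latter pair (1.58). Nf2, merlin, the ERM-related tumour suppressor, was within 2-fold in all 4 comparisons, and so were Slk, a kinase that phosphorylates ERM proteins, and Rock1. Spn, the leukocyte sialophorin CD43, a moesin anchor, was at 82 in PDPN+ and 1253 in ITGA8+ (3.69). Nf2, Slk and Rock1 were named after their values were seen.

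Taken by comparison, 5 of the 7 genes were higher in PDPN+ than PDPN- and 0 lower, where 19.8% of 13419 genes were higher and 7.84% lower. Those 5 were Pdpn, Clec1b, Cd44, Ezr and Msn, and Pdpn is among them by the sort. The median of the 7 was 1.77, against 0.04 over all genes. Higher genes made up 71.7% of those past 2-fold, against 57.5% with quantile and 56.9% with loess normalisation and 81.1% after setting the housekeeping median to 0, and 5 of 7 were counted each time. PDPN- was the lowest fraction for 4 of these 5, all but Ezr. The call itself sets PDPN- below PDPN+, and PDPN- had the lowest median intensity of the fractions, 123. The share of all genes with PDPN- lowest was not counted.

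ITGA8+ minus ITGA8- had 1 of 7 higher, Clec1b, and 1 lower, Ezr, where 5.31% of 13866 genes were higher and 5.95% lower. The median of the 7 was -0.41, against 0.00. Higher genes made up 47.1% of those called, against 61.6% with quantile normalisation and 22.2% after the housekeeping shift, and Cd44 passed 2-fold at -1.09 with that shift. ITGA8+ minus PDPN+, which shares an array with each split, had 0 of 7 higher and 2 lower, Cd9 and Ezr, where 16.1% of 14087 genes were higher and 14.1% lower. There the median of the 7 was -0.61, against 0.04, and higher genes made up 53.3% of those called, against 40.9% after the housekeeping shift.

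ALCAM+ minus liver had 2 of 7 higher, Pdpn and Clec1b, and 0 lower, where 15.4% of 10989 genes were higher and 11.3% lower. The median of the 7 was -0.11. As deposited, without removing the shift, 3 of 7 were higher, Ezr joining at 1.47, and 94.5% of the genes past 2-fold were higher, against 57.8% relative to the shift and 89.8% after the housekeeping shift.

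**Figure D3:**
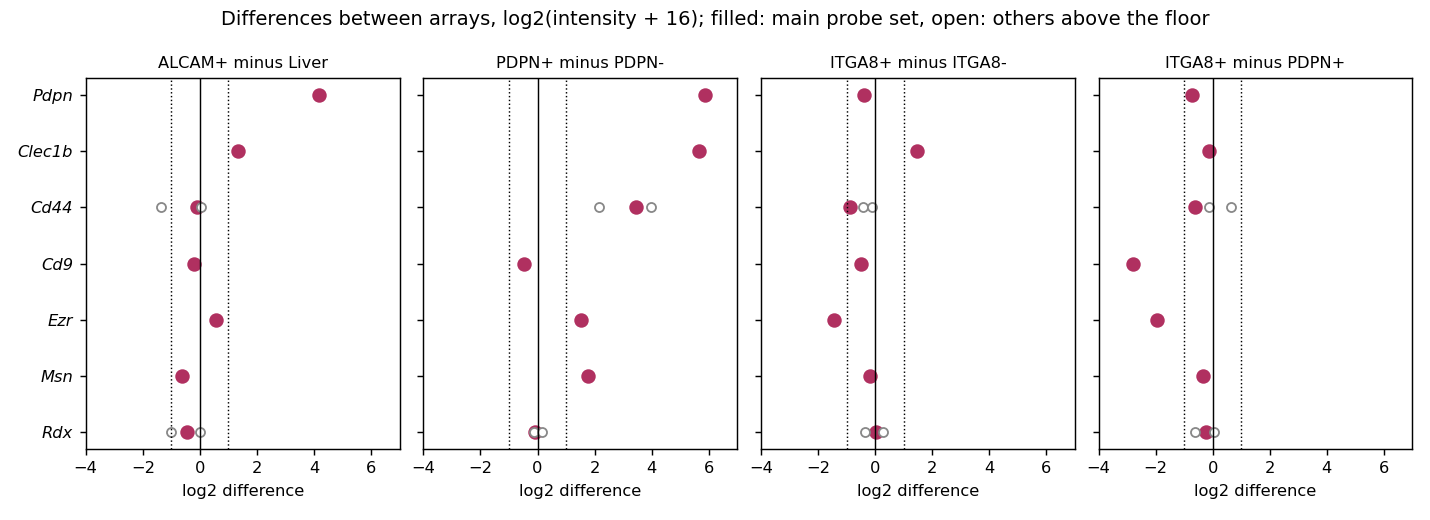
Log2 differences of the 7 genes (rows) in the 4 comparisons (panels), with the strongest probe set filled and other probe sets above the floor open; dotted lines mark 2-fold. ALCAM+ minus liver is relative to the median over the genes above the floor. Pdpn at 5.87, Clec1b at 5.67 and Cd44 at 3.45 stand out in PDPN+ minus PDPN-, and Cd9 at -2.78 in ITGA8+ minus PDPN+.

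Set against cell type markers in both splits, Clec1b lay among the megakaryocyte genes. Pdpn lay at the edge of the mesothelial genes that differed least between the ITGA8 fractions. Rdx, at -0.09 and 0.02, lay near the medians of all genes, 0.04 and 0.00, and so near no list in particular. Hepatoblast markers were within 2-fold in 8 of 8 in each split, with medians of -0.31 and 0.34. Housekeeping genes had medians of -0.18 and 0.20. Stellate markers had 1 higher and 2 lower of 9 in PDPN+ minus PDPN-, and 5 higher and 0 lower in ITGA8+ minus ITGA8-, medians -0.67 and 1.12. Lrat and Ngfr, 2 of the 9 stellate markers, were both lower in PDPN+ and higher in ITGA8+ past 2-fold, and none of the 7 genes was. Over all genes 7.84% were lower in PDPN+ and 5.31% higher in ITGA8+, so none of 7 says little about these genes. Over the pairs of the 7, the closest profiles were those of Cd44 and Msn (0.66), Ezr and Msn, and Msn and Rdx (0.67 both). The farthest were those of Pdpn and Cd9 (3.07). Even the closest pairs lay beyond 0.5, while 2235 of 14537 genes lay within 0.5 of Msn.

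**Figure D4:**
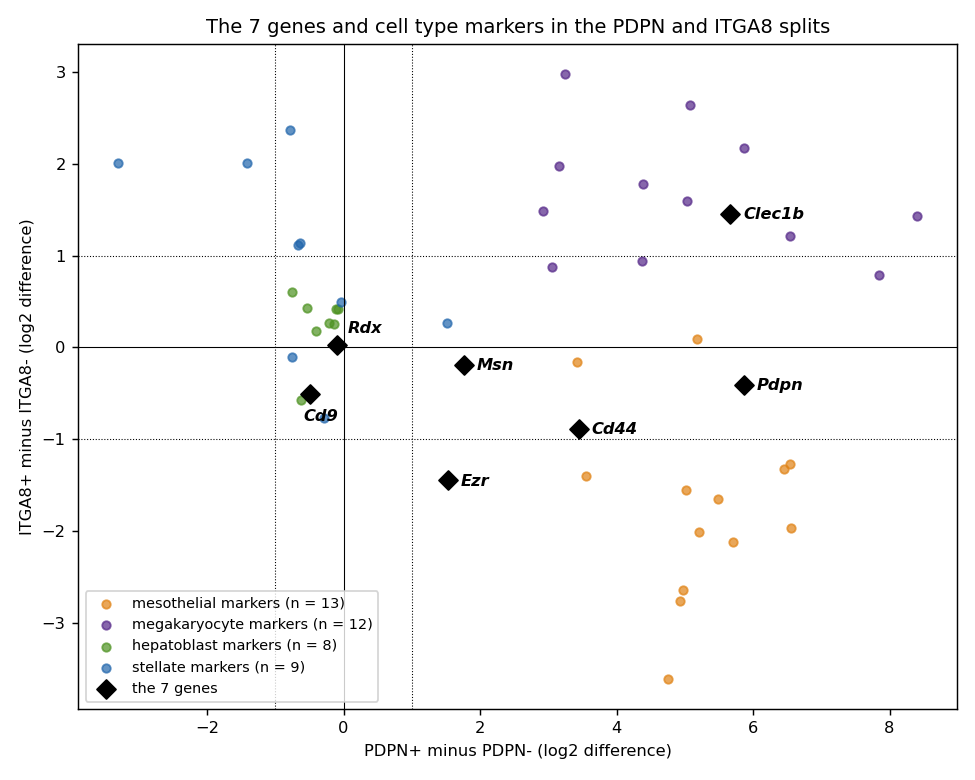
Log2 difference of PDPN+ minus PDPN- (horizontal) against ITGA8+ minus ITGA8- (vertical) for the 7 genes (diamonds) and 4 marker lists (dots, coloured by list); dotted lines mark 2-fold. Clec1b, at 5.67 and 1.46, is among the megakaryocyte dots, while Pdpn, at 5.87 and -0.41, is above most mesothelial dots.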

How the data were processed

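RNA of 6 samples was measured on 1 array each. The deposited intensity values are whole numbers on a linear scale; RMA and Partek are named in the submitters' processing notes, with version and genome build not given in the sources used here. As planned for linear values, log2(intensity + 16) was computed. Probe sets for controls (64), no gene (5746) or several genes (1280) were left out. The other 38011 named 20677 genes, with symbols from RefSeq (GRCm38.p6) where the Entrez identifier matched (92.1%); the probe set with the highest mean log2 value stood for a gene. A gene entered a comparison if either array exceeded 109.0. Arrays limit precision by their number, and p-values were not computed.

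The members and the 15 gene lists were chosen with earlier results of these data known. Named genes were the members, the 2 or 3 largest differences of a list in a comparison, and the 5 or 3 nearest profiles; others are marked. Of 180 list entries 175 were measured. Functions were tested on simulated data (Python 3.11.15, pandas 2.3.3, statsmodels 0.14.6 with a loess span of 0.3). Alternatives were other pseudocounts, floors, scalings, probe set choices and a 4-fold call.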

Additional observations from a re-analysis of the deposited data

How the results depend on the processing

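Each group has 1 array, so no replicate could be left out. No paired analysis was possible because the groups share no replicate beyond the number 1. Under 10 alternatives (pseudocounts 1 and 64, no floor, a floor of 665, quantile and loess normalisation, the housekeeping shift, the other choice of median shift, the median of a gene's probe sets, and probe sets without a suffix for shared targets) 276 of 280 differences of the 7 genes kept their side of 2-fold, and none past 2-fold changed sign. The other 4 passed it: Ezr in ALCAM+ minus liver, 0.58, at 1.01 with no floor, where the subtracted shift becomes 0.46 in place of 0.90, 1.20 with the housekeeping shift and 1.47 as deposited, and Cd44 in ITGA8+ minus ITGA8-, -0.89, at -1.09 with the housekeeping shift. At 4-fold the members called were 1 in ALCAM+ minus liver, 3 in PDPN+ minus PDPN-, 0 in ITGA8+ minus ITGA8- and 1 in ITGA8+ minus PDPN+, against 2, 5, 2 and 2 at 2-fold. The shares of genes above the floor that were 4-fold higher and lower were 3.52% and 2.29%, 9.02% and 0.805%, 0.339% and 0.462%, and 4.03% and 3.44% in the same order. Over the 10 alternatives Pdpn ranged from 5.41 to 6.04 and Clec1b was at 4.96 or above in PDPN+ minus PDPN-, and Cd9 from -2.96 to -2.63 in ITGA8+ minus PDPN+. Counts over all genes moved more. In ALCAM+ minus liver the 1694 higher and 1238 lower genes became 4961 and 290 as deposited, 3683 and 418 with the housekeeping shift, 2593 and 1994 with quantile normalisation, 3212 and 1279 with no floor and the shift of 0.46, and 749 and 488 with the higher floor. In PDPN+ minus PDPN- 2659 and 1052 became 3515 and 1671 with no floor and 1285 and 652 with the higher one. In ITGA8+ minus ITGA8- 736 and 825 became 1294 and 1105, 455 and 502, and 410 and 1438 with the housekeeping shift. In ITGA8+ minus PDPN+ 2269 and 1992 became 3973 and 2223 with no floor and 1250 and 1265 with the higher one. Low signal limits Pdpn, Clec1b and Cd44 in PDPN-, where Pdpn was just above the floor, at 117, and Clec1b and Cd44 below it.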

Other observations

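Of 18 ERM regulators and anchors, 2 were at least 2-fold higher on both ITGA8-sort arrays than on both PDPN-sort arrays, as were 5.22% of all genes above the floor. Spn was at 82 in PDPN+ and 71 in PDPN-, and 1253 in ITGA8+ and 1439 in ITGA8-, and Icam2, an adhesion molecule of endothelium and leukocytes, at 167, 40, 656 and 734. Selplg, at 273, 35, 256 and 200, did not divide the sorts. Of the hyaluronan genes, Vcan, at 2794, 1095, 8419 and 8432, and Lyve1 were also 2-fold higher on both ITGA8-sort arrays. Of the same list Cd74 went the other way, at 721, 180, 74 and 25. These genes were picked out after their values were seen.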
